A study of Mus musculus with 6 samples.

Results

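The genes described here are those of the junctions that hold liver cells together: claudins, other tight junction genes, polarity genes, and genes of adherens junctions, desmosomes and gap junctions. A gene was included if its symbol is Cldn, Dsg, Dsc, Pkp or Tjp followed by a number, and 20 further genes were named one by one. Of the 22180 genes measured, 66 were members: 31 claudins, 9 other tight junction genes, 4 polarity genes, 4 adherens genes, 15 desmosomal genes and 3 gap junction genes.

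RNA of 6 livers was measured on 1 array per mouse, and the comparison asks how liver tissue outside the tumors of MUTYH-null mice differed from that of wild-type mice. The 3 MUTYH-null mice (Mutyh -/-, animals 3003, 3007 and 3008) are labelled with HCC, hepatocellular carcinoma, and that the tissue was non-tumorous rests on the study's text. The 3 wild-type mice (Mutyh +/+, animals 1025, 1027 and 1001) had no liver tumor. All 6 were males on a C57BL/6 background and received a high-fat high-carbohydrate diet with high iron (HFHC + high iron) for 9 months, starting at 8 weeks of age. The null allele is carried in the germline and so affects every cell type of the animal. Since each MUTYH-null mouse and no wild-type mouse had tumors, the effects of genotype and of tumors cannot be told apart.

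Tight junctions close the space between neighboring epithelial cells, and in the liver they separate the bile canaliculus from the blood side of the hepatocyte. Claudins form the strands of that seal or pores within it, while occludin, the junctional adhesion molecules and the zonula occludens proteins shape the strands and tie them to the cell cortex. Adherens junctions and desmosomes carry mechanical load through cadherins and catenins, and gap junctions pass small molecules from one hepatocyte to the next.

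Values are log2 values as the authors normalized them, differences are MUTYH-null minus wild-type, and a gene was called at an unadjusted limma p under 0.05. The probe set naming Mutyh had values of 4.43, 4.65 and 4.34 in MUTYH-null mice, against 4.44, 4.36 and 4.48 in wild-type mice. The groups overlapped, both means lay below the median of all probe sets (4.52), and it is not known here whether these probes lie in the altered stretch, so the probe set checks neither genotype label. All 10 hepatocyte markers lay above that median, and their mean was 11.6 to 11.7 in MUTYH-null mice and 11.6 to 11.7 in wild-type mice, with 0 of the 10 called. In bulk tissue, fewer cells of a type and less RNA per cell cannot be told apart.

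The measured expression of junction genes differed little between MUTYH-null and wild-type livers. In 29 of the 66 members both group means lay at or below the median of all probe sets, where a change may not show. By limma, 0 of 66 members were higher in MUTYH-null mice, where 2.29% of all genes were, and 2 were lower (Cldn20 and Cldn34b3), where 2.8% of all genes were. In either direction this came to 3.03% of members, against 5.09% of all genes. After Benjamini-Hochberg adjustment over all genes limma called 0 members and 0% of all genes, and the smallest adjusted p of a member was 0.963. Of the differences, 34 were positive and 32 negative, between -0.38 and 0.38. Their median was 0.0064, against -0.0073 over all genes, and the median size without regard to sign was 0.087, against 0.084. For each of the 66 members the 95% interval of the difference lay within 1 log2 of 0, and for 52 it lay within 0.5 log2. The groups did not overlap in 7 members (10.6%), compared with 9.53% of all genes. Cldn16, Cldn24, Cldn34a and Dsc1 had all MUTYH-null values above all wild-type values, and Cldn20, Cldn34b3 and Jam3 had them below. All 7 had both group means below the median of all probe sets. Of the 36 members whose mean over the 6 mice was above that median, 0 had groups that did not overlap, whereas 9.28% of all genes above it did.

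**Figure D1:**
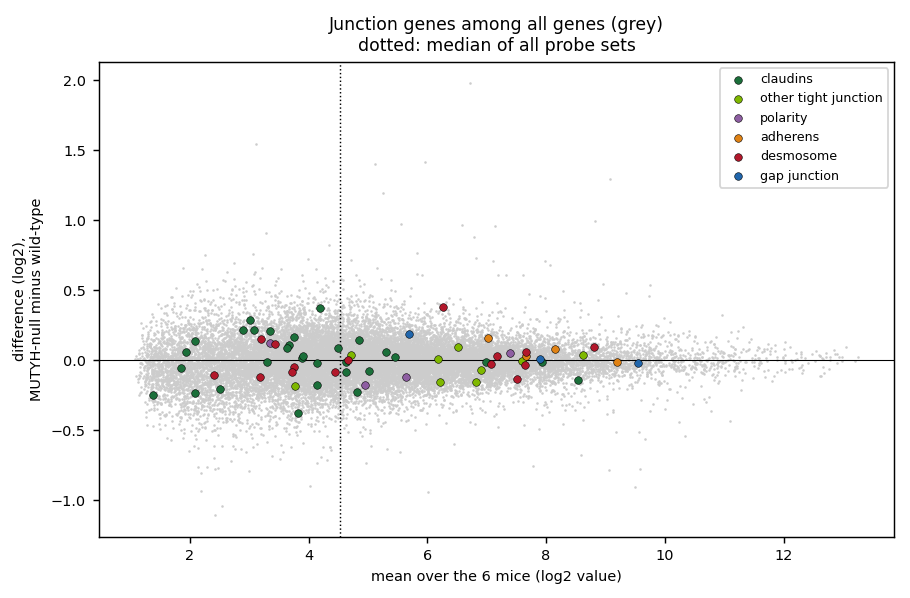
Difference between group means (y axis, log2, MUTYH-null minus wild-type) against the mean over the 6 mice (x axis, log2 value), with 1 grey point per gene, colored points for the 66 junction genes by class, and the median of all probe sets (4.52) dotted. The junction genes lie between -0.38 and 0.38, inside the cloud of all genes.

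Claudins included both called members, which came to 6.45% of claudins, against 5.09% of all genes. Of the 31, 16 had positive and 15 negative differences, with a median of 0.013, and 20 lay below the median of all probe sets in both groups. Cldn20, a member of the claudin family, had values of 3.74, 3.44 and 3.72 in MUTYH-null mice, against 4.00, 3.89 and 4.15 in wild-type mice. Every MUTYH-null value was thus below every wild-type value. Expression of Cldn20 was lower in MUTYH-null mice, with both group means below the median of all probe sets (difference -0.38, standard error 0.12, 95% interval -0.65 to -0.11, n = 3 mice per group, limma p = 0.012, adjusted p = 0.963, exact permutation p = 0.1). The exact p of 0.1 is the smallest that 3 against 3 mice allow. With each mouse left out in turn the difference was -0.44 to -0.28, and the limma call was made each time. The promoter of Cldn20 is shown because this was the member that remained called whichever mouse was left out. It is the RefSeq sequence around the annotated start at chr17:3532304-3532603 (GRCm38.p6, plus strand), with the 1 E-box, the letters CANNTG, in capitals.
Cldn20: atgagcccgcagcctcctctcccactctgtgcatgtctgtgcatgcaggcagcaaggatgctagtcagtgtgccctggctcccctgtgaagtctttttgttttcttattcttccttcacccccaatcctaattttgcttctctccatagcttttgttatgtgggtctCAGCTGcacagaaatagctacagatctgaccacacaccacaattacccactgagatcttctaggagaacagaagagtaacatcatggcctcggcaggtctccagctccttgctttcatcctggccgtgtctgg
E-boxes are bound by basic helix-loop-helix factors and, in the form CAGGTG or its reverse complement CACCTG, by repressors of the Snail family, which in mammals act on E-cadherin and some claudins. The single E-box of Cldn20 is of the other form, CAGCTG. RefSeq entries were at hand for 40 members with 58 promoters of 300 bases, and 43 of these (74.1%) held CANNTG, as did 72.3% of all 32851 promoters searched in the same way. The form CAGGTG or CACCTG, which is included in CANNTG, was found in 20 member promoters (34.5%) and in 20.2% of all promoters. Some members, such as Marveld2 and Ocln, entered with overlapping windows, so these shares count windows and not genes. Cdh1, Cdh2, Ctnna1 and all Dsg and Dsc genes were not among the 40 members, so the shares cover none of the cadherin genes. The difference in shares was not tested. The TATA box letters TATAAA, read on both strands, were found in 7 (12.1%) and in 13.6%. A match of letters is a description of the window and not a bound site.

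The other called member belongs to the Cldn34 genes, and how far the probes separate these related genes was not tested. Cldn34b3 had 1.38, 1.24 and 1.13 in MUTYH-null mice, against 1.45, 1.46 and 1.60 in wild-type mice, far below the median of all probe sets and without overlap. The difference was -0.25 (standard error 0.10, 95% interval -0.48 to -0.02, limma p = 0.036, adjusted p = 0.963, exact permutation p = 0.1), and the call was lost in 5 of the 6 fits that left out 1 mouse. Of the 8 Cldn34 members 5 had positive and 3 negative differences, from -0.25 to 0.29, and none lay above the median of all probe sets. Cldn34a had values of 3.11, 2.94 and 2.98 in MUTYH-null mice and 2.73, 2.74 and 2.90 in wild-type mice. These groups did not overlap either, with a difference of opposite sign to Cldn34b3, 0.21, which did not pass the test (limma p = 0.056, exact permutation p = 0.1).

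Among the remaining claudins the widest gap was that of Cldn8, a claudin known for the tight epithelium of the distal nephron. Its values were 4.51, 4.38 and 4.24 in MUTYH-null mice, against 3.73, 4.40 and 3.88 in wild-type mice. Wild-type mouse 1027 lay within the MUTYH-null range, and the difference of 0.38 had a 95% interval of -0.02 to 0.78 (limma p = 0.061, exact permutation p = 0.3). Cldn24 had 3.48, 3.53 and 3.34 in MUTYH-null mice, against 3.20, 3.24 and 3.29 in wild-type mice, a difference of 0.21 (limma p = 0.052, exact permutation p = 0.1). The groups of Cldn24 did not overlap, but the lowest MUTYH-null value lay close to the highest wild-type value. Neighboring claudin genes differed in either way: Cldn8 lies next to Cldn17 (-0.21), of opposite sign, and Cldn24 next to Cldn22 (0.088), of the same sign. Of 19 pairs of members with at most 2 coding genes between them, the difference had the same sign in 10 and opposite signs in 9.

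**Figure D2:**
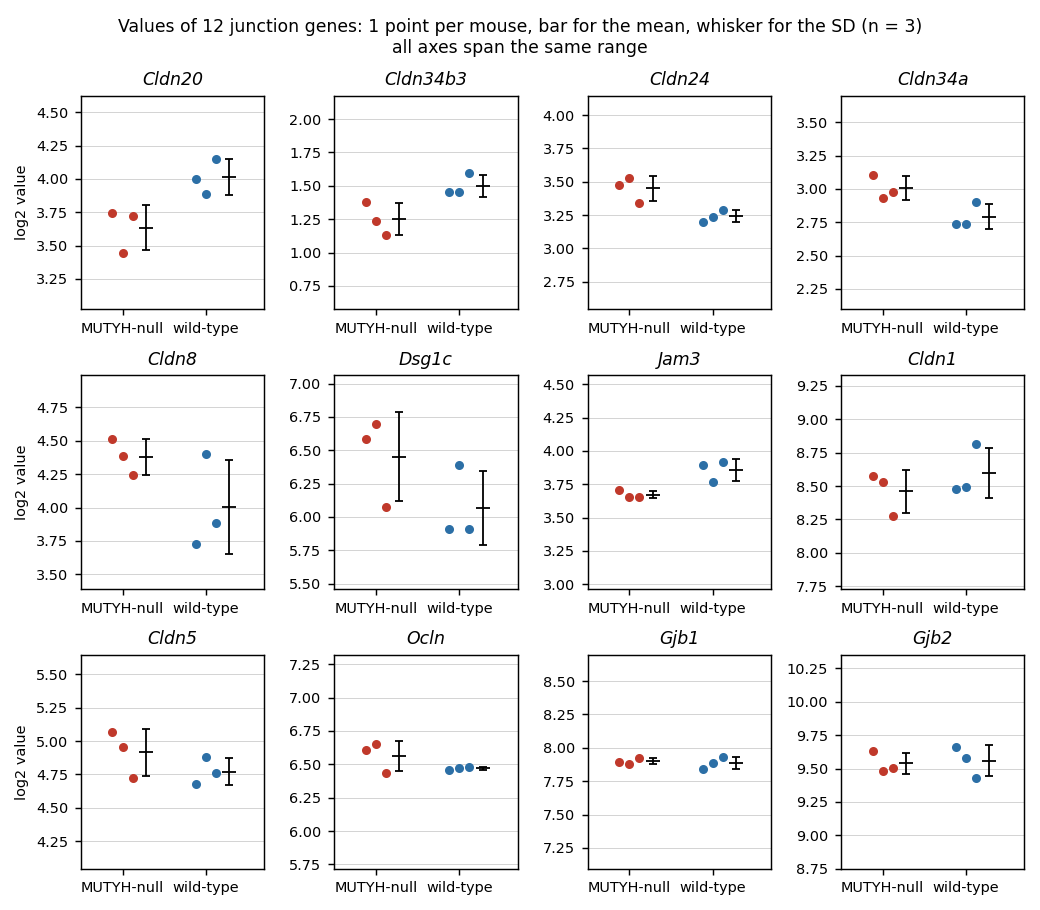
Log2 values (y axis, each panel spanning the same range) of 12 junction genes, with 1 point per mouse, MUTYH-null mice left in red and wild-type mice right in blue, a bar for the mean and a whisker for the SD (n = 3). Cldn20, Cldn34b3, Cldn24, Cldn34a and Jam3 show no overlap, while the groups of Cldn8, Dsg1c, Cldn1, Cldn5, Ocln, Gjb1 and Gjb2 overlap.

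The claudins known from liver tissue showed overlapping values throughout. Cldn1, a barrier claudin of hepatocytes that serves as an entry factor for hepatitis C virus in humans, had 8.57, 8.53 and 8.28 in MUTYH-null mice, against 8.48, 8.50 and 8.82 in wild-type mice. The difference was -0.14 (standard error 0.13, 95% interval -0.44 to 0.16), and without wild-type mouse 1001, the highest of the 6, it was -0.03. Cldn2, which forms pores for cations and water, differed by -0.07 (95% interval -0.34 to 0.19). Cldn3, a sealing claudin, had 7.79, 8.06 and 7.93 in MUTYH-null mice, against 8.01, 8.01 and 7.80 in wild-type mice, a difference of -0.013 (95% interval -0.26 to 0.24). Its 2 sets of values covered nearly the same range. Cldn5, the barrier claudin of endothelium, had 5.07, 4.95 and 4.72 in MUTYH-null mice, against 4.68, 4.88 and 4.76 in wild-type mice. MUTYH-null mouse 3008 lay among the wild-type mice, and the difference of 0.14 (95% interval -0.12 to 0.41) did not pass the test. Cldn14, a claudin whose loss causes deafness in humans and mice, differed by -0.08 (95% interval -0.33 to 0.17). The other claudins with at least 1 group mean above the median of all probe sets, Cldn4, Cldn9, Cldn11, Cldn12, Cldn13 and Cldn19, differed by between -0.23 and 0.086.

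Of the 9 other tight junction genes 4 had positive and 5 negative differences, with a median of -0.0058 and 0 called. Ocln, which encodes occludin, had 6.60, 6.65 and 6.44 in MUTYH-null mice, against 6.46, 6.47 and 6.48 in wild-type mice. The wild-type mice lay close together (SD 0.010, n = 3) and MUTYH-null mice spread around them (SD 0.11, n = 3), with a difference of 0.095 (95% interval -0.12 to 0.31). Tjp1, the scaffold known as ZO-1, differed by -0.0058 (95% interval -0.21 to 0.20), and F11r, the adhesion molecule JAM-A, by 0.04 (95% interval -0.19 to 0.26). Jam3, another adhesion molecule of the family, had 3.71, 3.66 and 3.65 in MUTYH-null mice, against 3.89, 3.76 and 3.92 in wild-type mice. These did not overlap, and the difference of -0.19 (standard error 0.087, limma p = 0.065, exact permutation p = 0.1) missed the threshold. Cgn, which encodes cingulin, a link from the junction to actomyosin, had 6.27, 6.30 and 5.81 in MUTYH-null mice, against 6.10, 6.56 and 6.20 in wild-type mice. The difference of -0.16 (95% interval -0.54 to 0.23) was -0.00094 without mouse 3008 and -0.023 without mouse 1027. Marveld2 (tricellulin), Marveld3, Jam2 and Tjp3 lay between -0.16 and 0.03.

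The polarity genes encode the PAR3 and PAR6 proteins, which with atypical protein kinase C set the apical border where tight junctions form. Of the 4, 2 had positive and 2 negative differences, and 0 were called. Pard6a had 4.89, 4.69 and 4.99 in MUTYH-null mice, against 4.93, 4.97 and 5.19 in wild-type mice. The groups overlapped, with a difference of -0.18 (95% interval -0.44 to 0.09), and Pard3, Pard6b and Pard6g differed by 0.05, -0.12 and 0.13.

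In the adherens class 0 of 4 members were called. Cdh1, the E-cadherin gene expressed in bile duct cells and in hepatocytes near the portal tracts, had 7.36, 7.08 and 6.86 in MUTYH-null mice, against 7.27, 6.85 and 6.68 in wild-type mice. Mice of each group were spread over most of the range, and the difference was 0.16 (standard error 0.18, 95% interval -0.25 to 0.57). With 1 mouse left out it was 0.03 (without 3003) to 0.33 (without 1025). Cdh2, the N-cadherin gene of hepatocytes, had 9.18, 9.21 and 9.15 in MUTYH-null mice, against 9.18, 9.14 and 9.25 in wild-type mice, and its difference was -0.011 (95% interval -0.20 to 0.18). Ctnna1, the actin-binding alpha-catenin, and Ctnnd1, the p120 catenin that keeps cadherins at the surface, differed by 0.08 and 0.03. The second probe set of Cdh1, with a lower mean, differed by 0.0065.

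**Figure D3:**
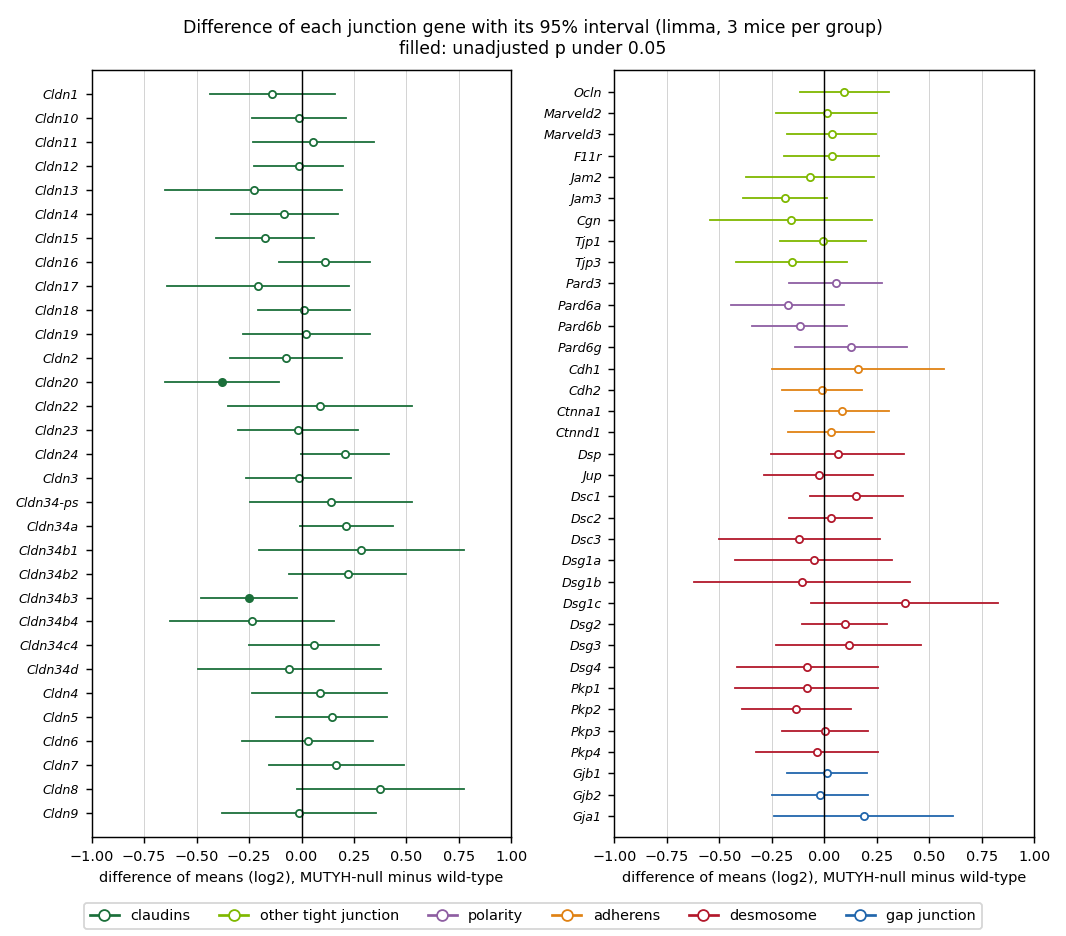
Difference between group means for each of the 66 junction genes (x axis, log2, MUTYH-null minus wild-type; claudins left, the other classes right), with the limma 95% interval as a line and a filled point for an unadjusted p under 0.05. Only Cldn20 and Cldn34b3 are filled, both to the left of 0, and every interval stays within 1 log2 of 0.

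Desmosomal genes had 7 positive and 8 negative differences among 15, with a median of -0.027 and 0 called. Dsp encodes desmoplakin, the link to keratin filaments, and had 7.97, 7.61 and 7.50 in MUTYH-null mice, against 7.74, 7.68 and 7.48 in wild-type mice. The difference of 0.06 (95% interval -0.26 to 0.38) was -0.07 without mouse 3003. Dsg2, the desmoglein of simple epithelia, differed by 0.096 (95% interval -0.10 to 0.30), while its second, dimmer probe set differed by -0.11. Jup (plakoglobin) and Pkp2 (plakophilin 2), plaque proteins that join the cadherins to desmoplakin, differed by -0.027 (95% interval -0.29 to 0.23) and -0.13 (95% interval -0.39 to 0.13).

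Dsg1c, 1 of 3 mouse copies of the desmoglein best known from epidermis, had the largest positive difference of all members. Its values were 6.59, 6.70 and 6.07 in MUTYH-null mice, against 5.91, 6.39 and 5.91 in wild-type mice. MUTYH-null mouse 3008 lay below wild-type mouse 1027, and the difference was 0.38 (standard error 0.19, 95% interval -0.06 to 0.83, limma p = 0.084, exact permutation p = 0.2). It was 0.57 without mouse 3008 and 0.54 without mouse 1027, and in both fits it passed the unadjusted threshold. The neighboring copies Dsg1a and Dsg1b differed by -0.05 and -0.11, and how far the probes separate the copies was not tested. Dsc1, a desmocollin, differed by 0.15 without overlap and without passing the test (limma p = 0.151, exact permutation p = 0.1).

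The gap junction genes gave narrow intervals around 0 for the hepatocyte connexins. Gjb1, the main connexin of hepatocytes, had 7.90, 7.88 and 7.92 in MUTYH-null mice, against 7.84, 7.89 and 7.93 in wild-type mice. All 6 livers were within 0.1 log2 of each other, and the difference was 0.011 (95% interval -0.18 to 0.20). Gjb2, which assembles with Gjb1 in hepatocytes, had 9.63, 9.48 and 9.50 in MUTYH-null mice, against 9.66, 9.58 and 9.43 in wild-type mice, a difference of -0.022 (95% interval -0.25 to 0.21). Gja1, the connexin of non-parenchymal liver cells, had 6.16, 5.62 and 5.58 in MUTYH-null mice, against 5.80, 5.68 and 5.32 in wild-type mice. Mouse 3003 stood above the other 5, and the difference of 0.19 (95% interval -0.24 to 0.61) was -0.0018 without it.

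**Figure D4:**
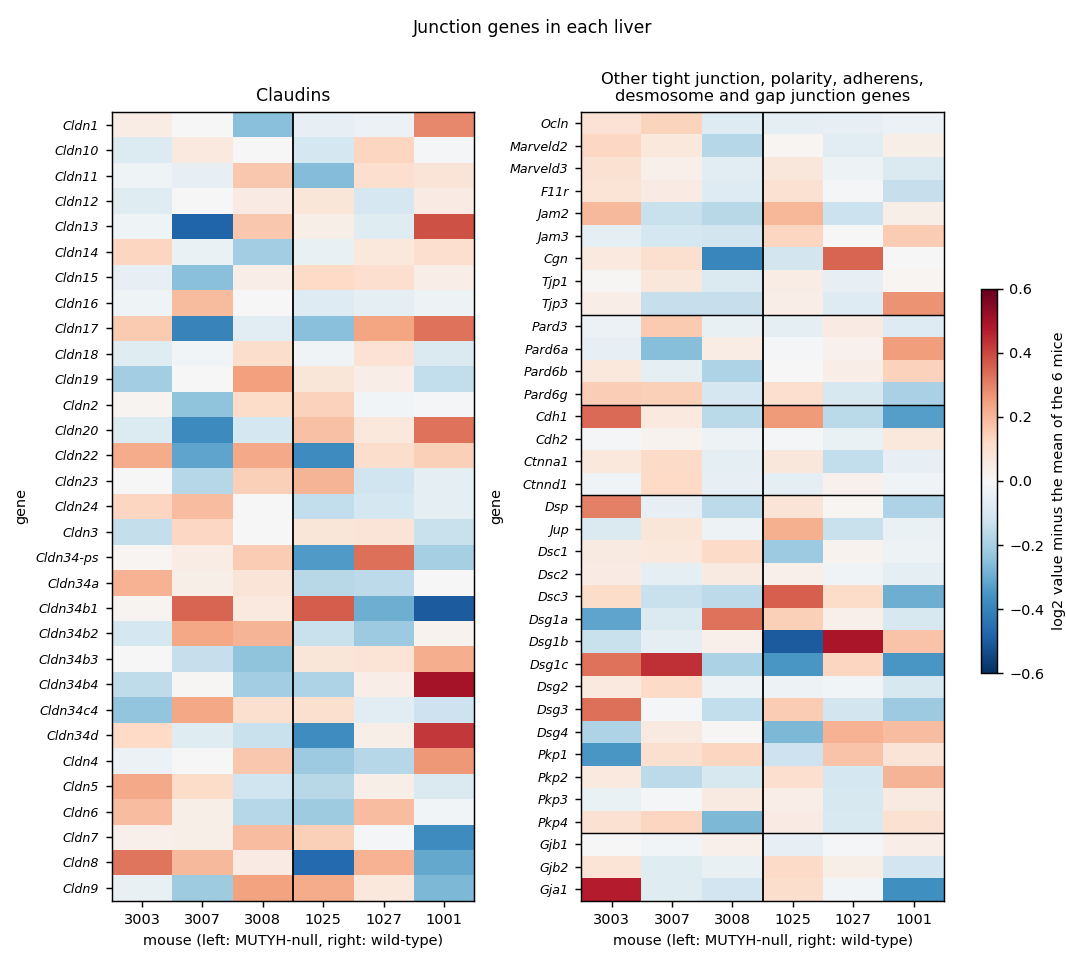
Log2 value of each junction gene in each mouse minus its mean over the 6 mice (color, red above and blue below), with the claudins left and the other classes right, and MUTYH-null mice left of wild-type mice in each panel. Red and blue cells are mixed within both groups.

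Single mice differed from each other within both groups. Across the 66 members the median deviation from the gene's mean was 0.025, 0.0054 and -0.030 in MUTYH-null mice 3003, 3007 and 3008, against 0.022, -0.0032 and -0.014 in wild-type mice 1025, 1027 and 1001. MUTYH-null mice 3003, 3007 and 3008 held the highest value in 12, 13 and 9 members and the lowest in 5, 9 and 13. Wild-type mice 1025, 1027 and 1001 held the highest value in 10, 6 and 16 members and the lowest in 17, 6 and 16. In 8 members (Cdh1, Dsc3, Dsg3, Dsp, F11r, Gja1, Marveld3 and Pard6g) mouse 3003 had the highest and 3008 the lowest value of the MUTYH-null mice while 1025 had the highest and 1001 the lowest of the wild-type mice. This pattern held in 12.1% of members and in 2.76% of all genes. It was chosen from these members after the values were seen, so its higher share among them carries no weight. Dsc3, Dsg3 and Pard6g lay below the median of all probe sets in both groups. The summed log2 values of the 7 cholangiocyte markers measured were 33.94, 33.74 and 32.99 in MUTYH-null mice 3003, 3007 and 3008, against 32.63, 32.41 and 31.90 in wild-type mice 1025, 1027 and 1001. The sums did not overlap between groups, and 4 of the 7 markers, Krt19 and Epcam among them, were at or below the median of all probe sets. Without Muc1 the sums of the other 6 markers were 28.12, 28.11 and 27.44 in MUTYH-null mice, against 27.16, 27.23 and 27.25 in wild-type mice, still without overlap. The ranking of wild-type mice in the sum of 7 markers, 1025 above 1027 above 1001, was thus that of Muc1 and was reversed without it. Of the 7 markers 1 was called, where 5.09% of all genes were, and the call did not hold after adjustment. This was Muc1, a mucin of the duct surface, with 5.82, 5.63 and 5.56 in MUTYH-null mice, against 5.46, 5.18 and 4.65 in wild-type mice. The difference of Muc1 was 0.57 (limma p = 0.018, adjusted p = 0.963, exact permutation p = 0.1). Among the other 6, Cftr (0.32, with overlapping groups) and Krt7 (0.24) had the largest differences. Krt19, Krt23, Sox9 and Epcam differed by between -0.015 and 0.062, all with overlapping groups. The part of bile duct cells in the values of the 8 members was not tested.

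**Figure D5:**
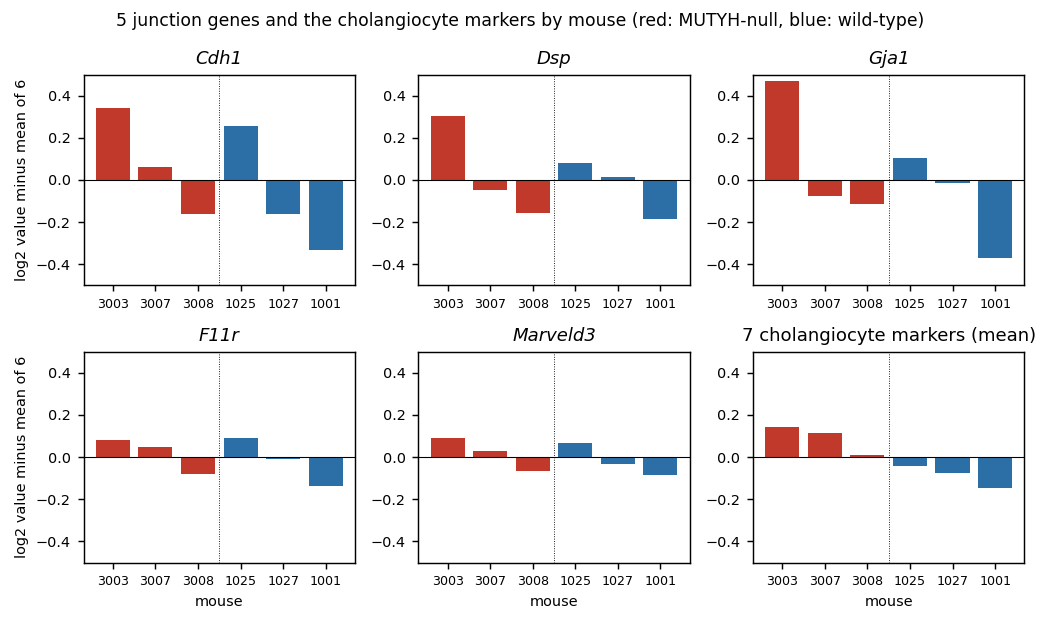
Log2 value minus the mean of the 6 mice (y axis) for Cdh1, Dsp, Gja1, F11r and Marveld3 and for the mean of 7 cholangiocyte markers, with 1 bar per mouse, MUTYH-null left in red and wild-type right in blue. The 5 genes were chosen for having mice 3003 and 1025 highest and mice 3008 and 1001 lowest in their groups, and the ranking of wild-type mice in the marker panel is that of Muc1.

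Genes whose products work with these junctions were described as well. Of 45 written, 44 were on the array, and 22 of these had a positive difference. By limma 1 was lower in MUTYH-null mice, where 2.8% of all genes were, and 0 were higher, where 2.29% of all genes were. After adjustment 0 passed, and the median difference was 0.000063. The lower one was Cldnd2, a claudin domain gene, with 3.70, 3.51 and 3.60 in MUTYH-null mice, against 3.81, 3.78 and 3.92 in wild-type mice (difference -0.23, limma p = 0.039, exact permutation p = 0.1). Its groups did not overlap and lay below the median of all probe sets. In all, 6 of the 44 had groups without overlap, compared with 9.53% of all genes. Nectin2 (0.19), Crb3 (0.18), Mpp5 (0.14) and Cldnd1 (-0.11) were among them and lay above that median, while Gjc1 (-0.27) lay below it. The largest difference was that of Ildr2, 0.41, with overlapping groups (limma p = 0.074, exact permutation p = 0.2). Ctnnb1, which encodes β-catenin, the partner of cadherins and carrier of Wnt signals, had 8.69, 8.74 and 8.66 in MUTYH-null mice, against 8.81, 8.69 and 8.74 in wild-type mice, a difference of -0.05 (95% interval -0.25 to 0.15).

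Of 48 markers of other cells, 4 were called (8.33%, against 5.09% of all genes), and none of these calls held after adjustment. Endothelial Lyve1 was higher in MUTYH-null mice by 0.46, and the macrophage genes Timd4 (-0.64) and Marco (-0.38) and the plasma cell and epithelial gene Sdc1 (-0.31) were lower. The groups overlapped for Lyve1 and for Sdc1 (exact permutation p = 0.2 for each). Endothelial markers went both ways, with 5 of 10 positive and a median difference of -0.011. Of the 10 macrophage markers 4 had positive differences (Vsig4 0.34, Lyz2 0.22, Cd68 0.21 and Itgam 0.21), with a median of -0.03. In the lymphocyte and plasma cell list 8 of 9 were positive, up to 1.40 for Jchain, the joining chain of secreted antibodies, which was not called. Summed lymphocyte and plasma cell markers were 42.8, 44.5 and 49.9 in MUTYH-null mice, against 43.5, 44.3 and 42.1 in wild-type mice, with mouse 3008 above the other 5. Of the 10 stellate cell markers and the 9 mesothelium and pancreas markers measured, 0 were called.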

How the data were processed

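Liver RNA of 3 MUTYH-null and 3 wild-type mice was hybridized to 1 Affymetrix whole-transcript array each. By RMA the authors produced log2 values, which were used as deposited. The submitters' processing notes give the tools as Transcriptome Analysis Console and Affymetrix Expression Console and state no version. The methods name a human array, whereas the probe table lists mouse genes. Array medians were 4.51 to 4.55. Pearson's r was 0.983 to 0.985 within groups and 0.982 to 0.985 between groups across probe sets, which are not independent replicates. Arrays have no read depth, and precision is limited by the number of mice.

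Of 41345 probe sets, the 23521 naming exactly 1 gene were kept. Where several named the same gene, the one with the highest mean stood for it, which left 22180 genes. All 66 members matched the GRCm38.p6 gene table by Entrez ID. Another 2 probe sets that name a claudin beside further genes were not used. All genes entered 1 fit without covariates (limma 3.58.1, functions lmFit and eBayes, R 4.3.3), checked on simulated data. For single genes an exact permutation test, two-sided, was added. Members and lists were chosen with earlier results of these data known. The members named were those called, those without overlap above the median of all probe sets, the largest difference in each class and those known from liver. Cldn8, Cldn24, Cldn34a, Dsc1 and Ctnnb1 were added after their values were seen. So were the partner genes Nectin2, Crb3, Mpp5, Cldnd1, Gjc1 and Ildr2. Settings varied were the filter on dim genes, normalization, probe set summary, variance trend, array weights and each mouse left out. Promoters were taken from RefSeq.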

Additional observations from a re-analysis of the deposited data

How the results depend on the processing

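The count of members lower in MUTYH-null mice, 2, became 0 when the 36 members with a mean above the median of all probe sets were fitted alone, since Cldn20 and Cldn34b3 were not among them, and 1 with a robust variance trend or with all probe sets tested, where Cldn34b3 missed the threshold. It was 1 to 3 with 1 mouse left out. The count higher, 0, became 1 after a repeated quantile normalization (Cldn34a) and 1 with array weights (Cldn24), and was 0 to 3 with 1 mouse left out. In either direction, 4.55% of members were called after quantile normalization and with array weights, against 5.28% and 5.24% of all genes. The share was 1.52% with a robust variance trend or all probe sets tested, against 4.74% and 3.51%. With 1 mouse left out it was 1.52% to 7.58% of members, against 4.59% to 5.93% of all genes. Without mouse 1027, 5 members were called, with Cldn8, Dsg1c, Jam3 and Cldn34-ps added and Cldn34b3 lost (7.58% of members, against 5.93% of all genes). Members without overlap, 7, numbered 0 in the dim-gene filter and 9 to 16 with 1 mouse left out (13.6% to 24.2% of members, against 18% to 21.5% of all genes). The adjusted count was 0 in all 13 alternatives. The median difference ranged from -0.0011 to 0.022 with 1 mouse left out, so that its sign was not fixed.

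Of 165 values of the 24 named members under settings other than leaving out a mouse, 161 kept direction and side of the threshold, and 2 changed sign: Tjp1 with array weights (0.0014) and Dsg2 with the mean of its probe sets (-0.0051). With a mouse left out, 116 of 144 did so and 20 changed sign. The ranges that crossed 0 were -0.17 to 0.0029 for Cldn14, -0.15 to 0.028 for Cldn2, -0.083 to 0.055 for Cldn3, -0.024 to 0.090 for F11r, -0.041 to 0.036 for Tjp1, -0.035 to 0.018 for Cdh2, -0.020 to 0.063 for Ctnnd1, -0.073 to 0.16 for Dsp, -0.10 to 0.073 for Jup, -0.011 to 0.033 for Gjb1, -0.085 to 0.030 for Gjb2 and -0.0018 to 0.29 for Gja1. The cause of these changes was not tested. No paired analysis was possible because the groups share no replicate number. Signal near background limits the 29 members with both group means at or below the median of all probe sets, where a change in expression may not show.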
